A study of Caenorhabditis elegans with 2 samples.

Results

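The heat shock protein genes and the DnaJ genes of *Caenorhabditis elegans* were examined as targets of CEH-82, a homeobox protein. All protein-coding genes whose name begins with hsp- or dnj- in the WBcel235 annotation were taken, which gave 51 genes of 19973, namely 22 hsp genes and 29 dnj genes. The 22 hsp genes were divided into 7 constitutive ones (hsp-1, hsp-90, hsp-110, hsp-3, hsp-6, hsp-60 and hsp-75) and 15 small and inducible ones (the hsp-16 and hsp-12 genes, hsp-17, hsp-25, hsp-43, hsp-4 and hsp-70). The measurement was chromatin immunoprecipitation with sequencing (ChIP-seq) of CEH-82 fused to eGFP, a green fluorescent protein, in larvae of the second stage (L2). There was 1 group of 2 biological replicates, each made from whole animals of strain OP212 of mixed sex, with the genotype unc-119(ed3) III; ddEx58, and the antibody label reads ceh-82. The Ex in ddEx58 marks an extrachromosomal transgene, and such arrays can be lost from some cells of an animal. The labels name no untagged strain, heat treatment, other stage or other factor as a group, and the ChIP control was not analysed here, so all comparisons are between genes within these animals.

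Heat shock proteins and DnaJ proteins are molecular chaperones, which hold, fold or unfold other proteins. HSP70 proteins bind and release their clients in an ATP cycle, DnaJ proteins bring clients and start the cycle, and exchange factors such as HSP110 end it. Constitutive members serve unstressed cells, whereas heat shock factor HSF-1 induces genes such as hsp-16.2 and hsp-70 through heat shock elements, inverted repeats of the bases GAA. The endoplasmic reticulum (ER) and the mitochondria have HSP70 proteins of their own and separate unfolded protein responses, for which hsp-4 in the ER and hsp-6 and hsp-60 in mitochondria serve as reporters in worms.

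A gene is called bound below when a summit of the authors' reproducible list lay between 1000 bp upstream and 200 bp downstream of its annotated start. That list held 537 peaks, the strongest of 9070 regions called on both replicates together (the pooled list). The list of each replicate held 30000 regions and so reached far into background. Signal values are the authors' own score per region, without a stated scale, and serve only to rank regions within a list. The lowest signal value in the reproducible list was 21.1, and the highest pooled region outside it had 21.02. Read counts are not part of the lists, and the sequencing depth behind each value is unknown.

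The sequences below show what lay at the summits of 6 bound chaperone genes and of the peak inside hsp-90, whose motifs are compared in the text. They are windows reaching 100 bp to either side of the summit, taken from the RefSeq genome of WBcel235 (ce11) and printed 5′ to 3′ on the strand of the named gene, except that only the 92 bp of the dnj-19 window outside the exon of nhr-47, in which the summit lies, are shown. Capitals mark matches on either strand to the heat shock element forms GAANNTTC and TTCNNGAA, to the GAGA repeat GAGAGAGA, the SP/KLF type site GGGCGG, the TATA box TATAAA, the homeodomain core TAATTG and the E-box CAGCTG, and matches that overlap run into each other.
hsp-1: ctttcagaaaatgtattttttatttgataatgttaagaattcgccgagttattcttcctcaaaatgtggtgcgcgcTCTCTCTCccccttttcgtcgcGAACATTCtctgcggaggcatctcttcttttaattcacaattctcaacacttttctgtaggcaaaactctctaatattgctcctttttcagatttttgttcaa
hsp-110: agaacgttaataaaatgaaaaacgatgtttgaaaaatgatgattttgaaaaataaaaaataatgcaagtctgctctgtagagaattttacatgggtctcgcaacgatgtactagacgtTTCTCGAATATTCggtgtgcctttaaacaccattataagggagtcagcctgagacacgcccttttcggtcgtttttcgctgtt
hsp-90: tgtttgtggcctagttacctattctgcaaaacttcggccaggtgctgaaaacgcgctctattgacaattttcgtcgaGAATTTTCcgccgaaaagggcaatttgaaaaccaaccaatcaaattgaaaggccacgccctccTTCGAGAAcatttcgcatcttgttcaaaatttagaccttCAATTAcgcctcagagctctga
dnj-13: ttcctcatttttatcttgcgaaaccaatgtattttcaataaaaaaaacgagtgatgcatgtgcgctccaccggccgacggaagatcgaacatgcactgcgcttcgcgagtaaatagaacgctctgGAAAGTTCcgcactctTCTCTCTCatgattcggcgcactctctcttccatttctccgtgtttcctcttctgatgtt
dnj-19: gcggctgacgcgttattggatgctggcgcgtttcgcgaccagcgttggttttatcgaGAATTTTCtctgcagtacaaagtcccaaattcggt
hsp-60: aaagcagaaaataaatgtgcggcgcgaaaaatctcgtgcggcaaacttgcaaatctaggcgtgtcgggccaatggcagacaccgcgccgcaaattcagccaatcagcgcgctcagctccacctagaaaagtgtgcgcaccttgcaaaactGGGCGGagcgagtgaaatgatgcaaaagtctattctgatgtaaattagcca
hsp-6: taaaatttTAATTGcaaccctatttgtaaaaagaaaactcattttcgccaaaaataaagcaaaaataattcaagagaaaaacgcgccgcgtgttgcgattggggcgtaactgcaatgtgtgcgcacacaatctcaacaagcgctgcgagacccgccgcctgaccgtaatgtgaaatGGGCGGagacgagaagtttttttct
A heat shock element here means a match to either form, a single inverted pair of GAA units, and binding by HSF-1 was not measured. The hsp-1 window was chrIV:17278507-17278707 on the plus strand, and its heat shock element contained the summit. The hsp-110 window was chrIII:8447064-8447264 on the minus strand, and both forms of the element overlapped there, 18 bp from the summit at the nearest base. The hsp-90 window was chrV:14685694-14685894 on the plus strand, with 1 element of each form 16 and 40 bp from the summit. The dnj-13 window was chrII:11545390-11545590 on the plus strand and the dnj-19 stretch was chrV:5505161-5505252 on the minus strand, with the element 25 bp from the dnj-13 summit and 66 bp from the dnj-19 summit. The mitochondrial genes hsp-60 (chrIII:1619060-1619260, plus strand) and hsp-6 (chrV:4827104-4827304, minus strand) had no such element in the window, and each had a GGGCGG match.

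CEH-82 peaks lay at most of the constitutive hsp genes and at none of the small and inducible ones. Of the 51 hsp and dnj genes, 10 (19.6%) were bound, against 507 (2.54%) of all 19973 protein-coding genes. The bound genes were 5 of 7 constitutive hsp genes (71.4%), 0 of 15 small and inducible hsp genes and 5 of 29 dnj genes (17.2%). With only 2.54% of all protein-coding genes bound, 0 of 15 does not set the small and inducible genes apart from genes at large. With the whole pooled list the counts were 5 of 7, 0 of 15 and 8 of 29, against a background of 15.5% of all protein-coding genes. The genes are few and were grouped with earlier results of these data known, so the shares describe these genes and carry no test. Both hsp-6 and hsp-60, which were bound, were placed as constitutive, whereas hsp-4, which was not bound, was placed as inducible. All of them serve as reporters of unfolded protein responses, so the contrast between the classes depends on this placement. The small and inducible class joins 13 small hsp genes with the HSP70 family genes hsp-4 and hsp-70, and 0 were bound in either part. Response to heat was not measured here, so 0 of 15 is not a count of inducible genes alone.

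**Figure D1:**
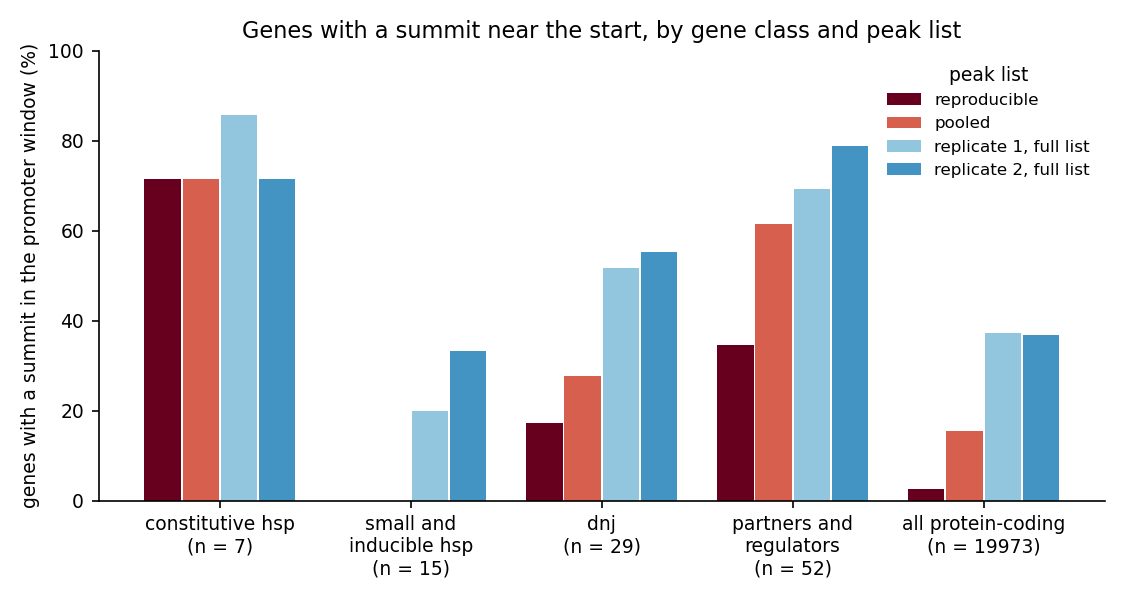
Share of genes (y axis, percent) with a summit in the promoter window for each gene class (x axis, n genes) in the reproducible, pooled, replicate 1 and replicate 2 lists. The constitutive hsp genes stand at 71.4% in the reproducible list and the small and inducible hsp genes at 0%, while all protein-coding genes stand at 2.54%.

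The same division appeared when each replicate was taken alone and limited to its strongest 537 regions. The reproducible list was derived from these same replicates, so this agreement is partly built in. In replicate 1, those regions had summits at 5 of 7 constitutive, 0 of 15 small and inducible and 3 of 29 dnj genes, against 2.00% of all protein-coding genes. In replicate 2 the counts were 5 of 7, 0 of 15 and 5 of 29, against 2.40%. The dnj genes that replicate 1 lacked were dnj-14 and dnj-19. In the full lists of 30000 regions the classes were closer, with 6 of 7, 3 of 15 and 15 of 29 genes in replicate 1, against 37.2% of all protein-coding genes. The full list of replicate 2 gave 5 of 7, 5 of 15 and 16 of 29, against 36.9%. In the full lists the small and inducible genes had summits no more often than all protein-coding genes.

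Among the constitutive genes, the cytosolic HSP70 gene hsp-1 had its peak at chrIV:17278475-17278738, an intergenic site with the summit at -352 bp from the gene start and a signal value of 42.8, rank 101 of the reproducible list. Its strongest summit in the window had a signal value of 10.5 (rank 254) in replicate 1 and 34.2 (rank 75) in replicate 2. No other protein-coding gene had this summit in its window. The gene of its exchange factor, hsp-110, had a peak at chrIII:8447032-8447295 with a signal value of 43.6 (rank 95) and the summit at -255 bp. In replicate 1 this gene had 9.08 (rank 393) and in replicate 2 33.9 (rank 76). The summit also lay at -189 bp from rpn-3, a proteasome subunit gene on the other strand.

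The mitochondrial chaperonin gene hsp-60 had the highest value of the 51 genes in the reproducible list, with a signal value of 46.8 (rank 84) at chrIII:1619028-1619291 and the summit at -582 bp. Its values were 13.6 (rank 136) in replicate 1, where hsp-6 was highest, and 30.3 (rank 100) in replicate 2, where hsp-1 was highest. The same summit lay at -231 bp from Y22D7AL.10 on the other strand, which encodes the 10 kDa partner of that chaperonin, so that a single peak stood between the genes of both parts of the complex. The mitochondrial HSP70 gene hsp-6 had a peak at chrV:4827072-4827335 with 38.1 (rank 133) and the summit at -444 bp. It had 17.001 (rank 85) in replicate 1 and 16.98 (rank 389) in replicate 2. The summit was at -156 bp from C37H5.5, the opposite-strand neighbour.

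The ER chaperone BiP is encoded by both hsp-3 and hsp-4 in worms, and the pair differed. The constitutive gene hsp-3 was bound with 39.8 (rank 122) at chrX:6091970-6092233, and its summit, at 22 bp downstream of the start, lay in an exon of hsp-3. The values were 11.7 (rank 191) in replicate 1 and 20.2 (rank 250) in replicate 2, where the nearest summit was 95 bp away. The stress-induced gene hsp-4 had no reproducible or pooled summit in its window. Its only regions were weak ones, 2.88 (rank 20556) in replicate 1 and 4.55 (rank 11661) in replicate 2, at -328 and -52 bp and thus not at a common position.

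The constitutive genes not counted as bound were hsp-90 and hsp-75. For hsp-90, which encodes the cytosolic HSP90, a reproducible peak with 31.1 (rank 216) lay at chrV:14685662-14685925 in an intron of the gene. The summit was 876 bp downstream of the outermost start, outside the window, and at -366 bp from a second annotated transcript start that lies 1242 bp into the gene. In replicate 2 the same site had 25.8 (rank 145), whereas in replicate 1 it had 3.93 (rank 10019). Counting the starts of all transcripts, hsp-90 was the only member gained, giving 11 of 51 members and 6 of 7 constitutive genes, against 2.69% of all protein-coding genes. At hsp-75, the mitochondrial HSP90 gene, the only summit was one of replicate 1 with 3.86 (rank 10554).

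**Figure D2:**
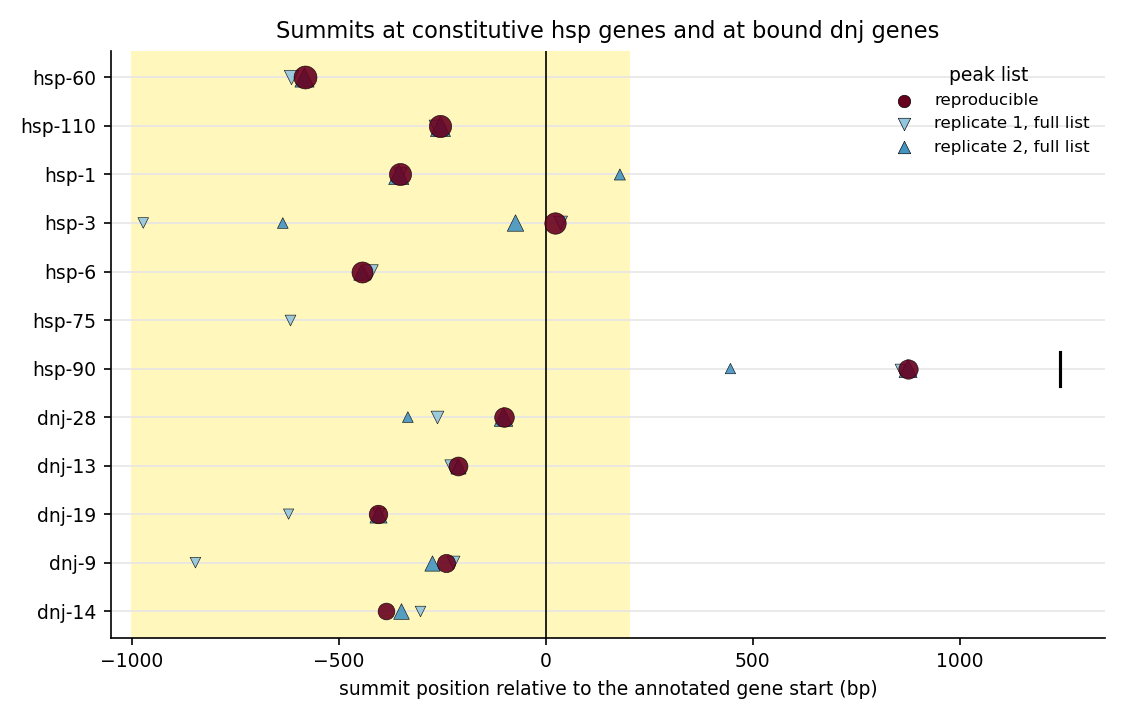
Position of each summit relative to the annotated gene start (x axis, bp) for the 7 constitutive hsp genes and the 5 bound dnj genes (rows), with larger symbols for higher signal values, circles for the reproducible list and triangles for the replicates. The shaded band is the promoter window and the short black bar marks the second transcript start of hsp-90, whose reproducible summit lies outside the band at 876 bp.

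In the reproducible list the 5 bound dnj genes all had lower signal values than the 5 bound constitutive hsp genes, but in each replicate the classes overlapped. In the reproducible list the dnj genes spanned 21.2 to 32.1 with a median of 28.0, and the constitutive genes 38.1 to 46.8 with a median of 42.8, against a median of 29.2 over all 507 bound genes. In replicate 1 hsp-110, with 9.08, was below dnj-13 and dnj-9, and in replicate 2 hsp-6, with 16.98, was below dnj-28, dnj-19 and dnj-14. The highest dnj gene was dnj-28 with 32.1 (rank 200), at -102 bp, with 27.8 (rank 127) in replicate 2. In replicate 1 its nearest summit, with 8.71 (rank 465), was 160 bp away from the reproducible one, and the supr-1 start on the other strand shared the site at -472 bp. The peak of dnj-13, which encodes a class B DnaJ protein of the cytosol, lay at chrII:11545358-11545621 with 29.2 (rank 251) and the summit at -211 bp, in an intron of dhgd-1. It had 10.4 (rank 260) in replicate 1 and 15.5 (rank 465) in replicate 2, within 18 bp of the reproducible summit in both.

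The gene for a class A cytosolic DnaJ protein, dnj-19, had a peak at chrV:5505129-5505392 with 28.0 (rank 273) and the summit at -404 bp. That summit lay in an exon of nhr-47, a nuclear hormone receptor gene, 8 bp from the nhr-47 start. In replicate 1 the site had 6.52 (rank 1482) and in replicate 2 22.4 (rank 198). The peak of dnj-9 at chrII:4851684-4851947 had 26.6 (rank 309) at -240 bp, with 9.56 (rank 333) in replicate 1 and 16.3 (rank 417) in replicate 2. The weakest was that of dnj-14, which encodes a homolog of the cysteine string protein of synaptic vesicles, at chrX:4712002-4712265 with 21.2 (rank 528) and the summit at -386 bp, close to the edge of the list. Replicate 1 had only 3.50 (rank 13319) there, and replicate 2 had 17.4 (rank 364). The start of glit-1 on the other strand was nearer to this summit, at -145 bp. Among the stronger 50% of the reproducible peaks, 2 of 29 dnj genes were left, dnj-28 and dnj-13, against 1.36% of all protein-coding genes, since the shorter list holds fewer peaks for every gene.

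**Figure D3:**
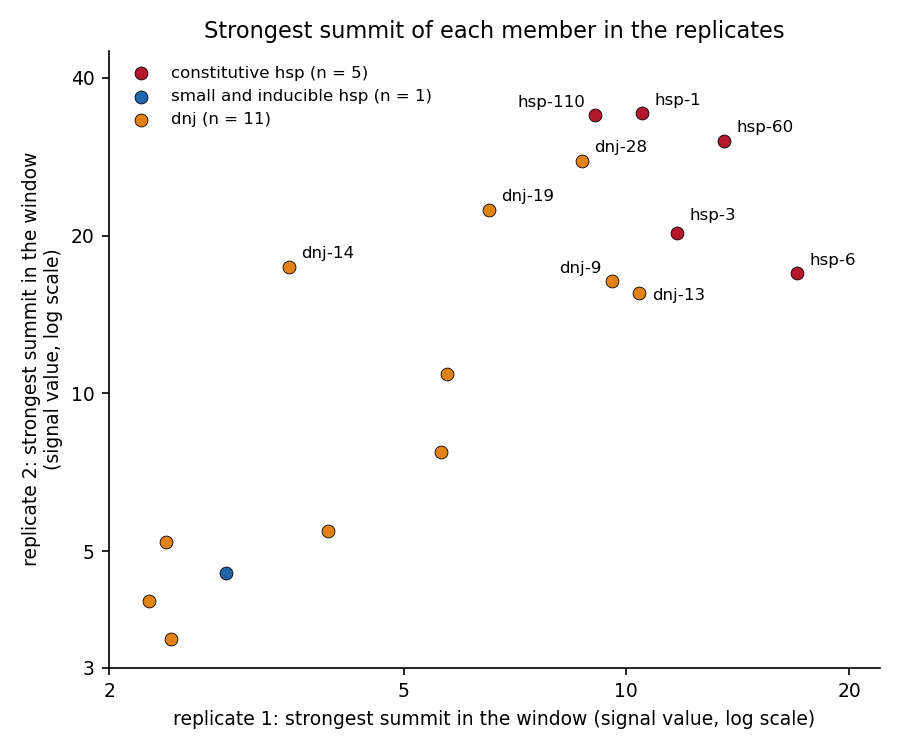
Signal value of the strongest summit in the window in replicate 1 (x axis, log scale) and replicate 2 (y axis, log scale) for the members with a summit in both full lists, 5 constitutive hsp, 1 small or inducible hsp and 11 dnj genes, with bound genes named. The bound genes lie at 15.5 or above in replicate 2, whereas in replicate 1 dnj-14 lies at 3.50, among the unbound genes.

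In both replicates, from which the reproducible list was derived, every bound member had a summit in its window. All 10 were among the strongest 537 regions of replicate 2, at ranks 75 to 465, and 8 of 10 among those of replicate 1. None of the 41 members that were not bound reached the strongest 537 regions of either replicate. Of these 41, 3 had a pooled summit and 18 had no summit of any list in the window, hsp-90 included. Over all protein-coding genes, bound ones included, 15.5% had a pooled summit. The share of all protein-coding genes without a summit of any list was not counted, so the 18 are not read as a trait of these members. The 3 members with a pooled summit were dnj-11, dnj-23 and dnj-21. The gene dnj-11, for a DnaJ protein of the ribosome-associated type, had 15.9 (rank 913) at -261 bp, with 5.72 (rank 2667) in replicate 1 and 10.9 (rank 943) in replicate 2. The pooled value of dnj-23 was 8.68 (rank 5143), and that of dnj-21, which encodes a subunit of the mitochondrial import motor, was 8.37 (rank 5854).

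The small and inducible hsp genes had only low-ranking regions of the replicate lists. In replicate 1 these were at hsp-12.3 (3.50, rank 13253), hsp-70 (3.34, rank 15039) and hsp-4. In replicate 2 they were at hsp-12.1 (4.66, rank 10914), hsp-4, the divergent pair hsp-16.2 and hsp-16.41 (a shared summit with 3.89, rank 17181) and hsp-43 (3.84, rank 17882). Only hsp-4 had a summit in both lists. The hsp-16.1, hsp-16.48, hsp-12.2, hsp-12.6, hsp-17 and hsp-25 genes had none.

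How far the sequence of the windows was unique differed within the class. The annotation gives the names hsp-16.1 and hsp-16.48 to a pair of gene identifiers each, and in the windows of these 4 genes 0% to 6.86% of 50 bp words occurred once in the genome. For hsp-16.2 and hsp-16.41 the share was 100%, and for the 45 members outside the hsp-16 family it was 87.0% to 100%. Without the 4 repeated genes, 0 of 11 small and inducible genes were bound. The treatment of reads with several matches was not stated, and the part of repeated sequence in the empty hsp-16.1 and hsp-16.48 windows was not tested.

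By compartment, 4 of 9 cytosolic members (44.4%), 1 of 7 ER members (14.3%) and 2 of 6 mitochondrial members (33.3%) were bound, beside 2.54% of all protein-coding genes. The small hsp genes were left out of the compartments and 16 members were not placed, of which 3 were bound (dnj-28, dnj-9 and dnj-14). With the 6 hsp-16 genes counted as cytosolic, the cytosolic share was 4 of 15 (26.7%), below that of the mitochondria. In a window of 500 bp upstream to 100 bp downstream hsp-60 was lost and 1 of 6 mitochondrial genes was left, against 2.04% of all protein-coding genes. In the cytosol the bound genes were hsp-1, hsp-110, dnj-13 and dnj-19, which encode an HSP70, its exchange factor and DnaJ proteins of both main classes. The heat-inducible cytosolic gene hsp-70 was not among them. Among the members placed in the ER only hsp-3 was bound, and none of the 5 DnaJ genes placed there. In the mitochondria hsp-60 and hsp-6 were bound, and none of the 3 DnaJ genes placed there, of which dnj-21 had a pooled summit. With so few genes in each compartment, the shares are descriptions and their order was not tested.

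**Figure D4:**
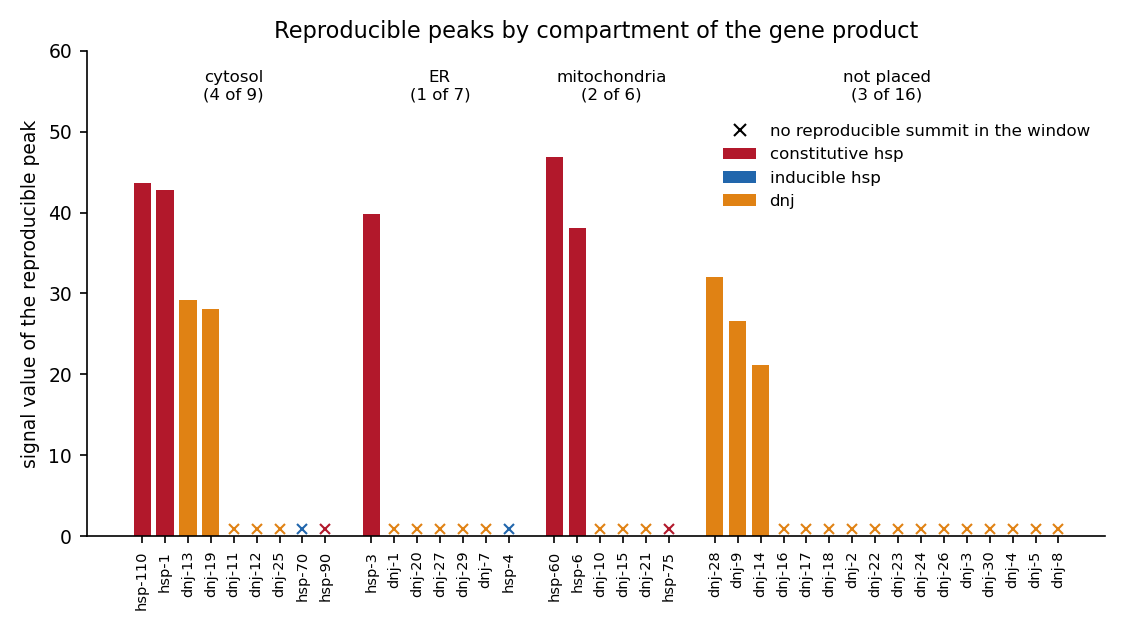
Signal value of the reproducible peak (y axis) for each member by compartment of its product (x axis), with a cross for a gene without a reproducible summit in the window. The cytosol has 4 of 9, the ER 1 of 7 and the mitochondria 2 of 6 genes with a peak, and in this list the constitutive hsp bars, at 38.1 to 46.8, stand above the dnj bars.

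The position of the summits at bound chaperone genes was near that at all bound genes. The summit was upstream of the start in 9 of 10 bound members, with a median of -304 bp, and in 490 of all 507 bound genes, with a median of -249 bp. For 7 of 10 bound members an opposite-strand protein-coding gene had the same summit in its window, as for 295 of all 507 bound genes (58.2%). The neighbours were Y22D7AL.10, rpn-3, C37H5.5, supr-1, F54D5.9, nhr-47 and glit-1, whereas hsp-1, hsp-3 and dnj-9 had no such protein-coding gene. Annotated noncoding RNA genes also had the summit in their windows. They were F26D10.23 at hsp-1, F54D5.22 at dnj-13, DL2.1 and DL2.2 at dnj-14, and C24G6.10 and C24G6.12 at dnj-19. The others were C30C11.14 at hsp-110 and C37H5.15 and C37H5.16 at hsp-6. The summit lay at 194 (hsp-1), 26 (dnj-13), 20 (dnj-14), 0 (dnj-19), -69 (hsp-110) and 60 bp (hsp-6) from the nearest of them, closer than to the member's start. When each summit was given only to the nearest start of a protein-coding gene, 5 of 51 members were left, against 1.74% of all protein-coding genes, a share that also falls under this rule. The summits of hsp-110, hsp-6, hsp-60, dnj-14 and dnj-19 went to their neighbours, which left 2 of 7 constitutive and 0 of 6 mitochondrial genes, beside the same 1.74%. A peak between 2 starts does not show which gene it belongs to.

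In C. elegans many genes follow another closely on the same strand, some of them in operons, and such genes can lack a promoter of their own. Among the members, 11 had an upstream protein-coding neighbour on the same strand within 500 bp, and 1 of these was bound (9.09%), namely dnj-9. Of the other 40 members 9 were bound (22.5%). Over all protein-coding genes the shares were 1.38% of 3615 genes with such a neighbour and 2.79% of the other 16358. The 11 genes were hsp-75 and 10 dnj genes, and the part of gene spacing in the dnj count was not tested.

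The matches to the heat shock element forms printed above lay at peaks of cytosolic members, and whether HSF-1 binds them was not tested. The form GAANNTTC, which reads the same on both strands, was in the summit windows of 4 of 10 bound members, namely hsp-1, hsp-110, dnj-13 and dnj-19, and in 8.01% of all 537 reproducible windows. These 4 were all of the bound cytosolic members, and 0 of the other 6 bound members had it. Cytosolic members that were not bound, hsp-70, hsp-90, dnj-11, dnj-12 and dnj-25, also had GAANNTTC in the 250 bp upstream of the start. The bound gene dnj-19 had none there, and 15.7% of all protein-coding promoters had this form. The element was thus not particular to bound cytosolic genes. The form TTCNNGAA was in 1 of the 10 windows, at hsp-110, and in 6.15% of all reproducible windows. Among the 9070 pooled windows 1089 had GAANNTTC and 1123 had TTCNNGAA. The hsp-90 window, not counted among the 10, had both forms.

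In the 250 bp upstream of the start, both forms were present in 3 of 7 constitutive, 8 of 15 small and inducible and 3 of 29 dnj genes, and in 3.64% of all protein-coding promoters. The 8 small and inducible genes were the 6 hsp-16 genes, which are divergent pairs that share the sequence between them, with hsp-4 and hsp-70. No hsp-12 gene had both forms, nor had hsp-17, hsp-25 or hsp-43. None of the 8 was bound, but the windows of hsp-16.1 and hsp-16.48 are the mostly repeated ones described above. The promoters of hsp-16.2 and hsp-4 are shown because they hold such elements at unbound genes. The hsp-16.2 sequence is the whole 220 bp between its start and that of hsp-16.41 (chrV:1804958-1805177, minus strand), and the hsp-4 sequence is 250 bp (chrII:7352646-7352895, minus strand). Capitals mark the same motifs, and in hsp-4 also TGACGTG, the core of the sites bound by XBP-1, the transcription factor of the ER response.
hsp-16.2: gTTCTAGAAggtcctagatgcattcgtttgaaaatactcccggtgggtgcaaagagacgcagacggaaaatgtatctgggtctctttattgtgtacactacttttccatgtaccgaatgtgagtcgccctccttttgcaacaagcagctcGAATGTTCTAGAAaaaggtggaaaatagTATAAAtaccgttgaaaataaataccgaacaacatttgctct
hsp-4: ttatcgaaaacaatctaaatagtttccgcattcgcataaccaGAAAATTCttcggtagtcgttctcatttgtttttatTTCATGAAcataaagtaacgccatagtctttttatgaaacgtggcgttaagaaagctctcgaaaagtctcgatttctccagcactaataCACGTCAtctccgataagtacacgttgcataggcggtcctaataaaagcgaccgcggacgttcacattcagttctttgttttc
In hsp-16.2 a pair of overlapping elements ended 58 bp before the start, with a TATA box (TATAAA) 37 bp before it. The TATAAA match was in the promoters of 5 of 7 constitutive, 7 of 15 small and inducible and 8 of 29 dnj genes, and in 35.2% of all protein-coding promoters. In hsp-4 the TGACGTG match ended 77 bp before the start. TGACGTG was in the promoters of 1 of 7 constitutive genes (hsp-3), 1 of 15 small and inducible genes (hsp-4) and 3 of 29 dnj genes, and in 2.39% of all promoters. Promoters with both forms of the heat shock element thus stood at bound genes, hsp-1 and hsp-110, and at unbound ones, hsp-16.2 and hsp-4 among them.

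The other motifs were found in 0 to 2 of the 10 member windows each, too few to set apart from all reproducible windows. GAGAGAGA was in 2 of 10 member windows (hsp-1 and dnj-13) and in 14.2% of all reproducible windows, against 4.58% of pooled windows. GGGCGG, a core of SP/KLF sites, was in 2 of 10 (hsp-60 and hsp-6) and in 59 of all 537 reproducible windows, against 5.99% of pooled windows. The homeodomain core TAATTA was in 0 of 10 member windows and in 5.77% of all reproducible windows, against 7.76% of pooled windows. TAATTG was in 1 of 10 (hsp-6) and in 6.33% of all reproducible windows, against 13.3% of pooled windows. The E-box CAGCTG was in 0 of 10, and in 7.82% of all reproducible windows. TATAAA was in 2 of 10 (dnj-19 and dnj-9), beside 9.12% of all reproducible windows, and TGACGTG in 1 of 10 (dnj-28), beside 2.98%. The GC content of the member windows was 45.2% ± 7.56 (SD over 10 windows), that of all 537 reproducible windows 46.7% ± 6.93, and that of the 9070 pooled windows 38.8% ± 7.56, so member windows differed from all reproducible windows by less than their spread.

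A list of 52 genes that work with or control these chaperones was set beside them. Of these, 18 (34.6%) were bound, against 2.54% of all protein-coding genes, and 32 had a pooled summit, against 15.5%. With each summit given to the nearest start only, 11 were bound, against 1.74% of all protein-coding genes, and with the stronger 50% of the peaks also 11, against 1.36%. Bound were 11 of 21 genes of other chaperones, 3 of 8 genes of the cytosolic chaperonin CCT, 3 of 11 cochaperone genes and 1 of 12 stress regulator genes. The 18 include Y22D7AL.10, whose peak is the one already counted for hsp-60, and F44E5.4 and F44E5.5, which share a single peak. The partner share is thus not fully separate from that of the members. The strongest was cct-1 with 66.3 at -243 bp, with 16.19 (rank 93) in replicate 1 and 50.1 (rank 35) in replicate 2. It was followed by cct-8 with 51.6, bag-1, an HSP70 exchange factor gene, with 51.5 and icd-2 with 50.2. The third bound chaperonin gene was cct-6 with 22.9. The genes icd-2 and icd-1 (31.5) encode both subunits of the nascent polypeptide-associated complex, which meets new proteins at the ribosome, and both were bound.

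Further bound partners act in the cytosol, the ER and the mitochondria. The prefoldin genes pfd-1 and pfd-3 had 42.3 and 23.9, and the other 4 prefoldin genes were not bound. In the ER, the protein disulfide isomerase genes pdi-3 and pdi-6 had 36.0 and 30.9 and the calreticulin gene crt-1 had 26.1. C34C12.8, the gene of a mitochondrial GrpE exchange factor, had 35.8. The HSP90 cochaperone genes sti-1 and ahsa-1 had 23.2 and 22.4. Of the regulators only atf-6, a sensor of the ER response, was bound, with 28.4. For the heat shock factor gene hsf-1 the window had no pooled summit, with 4.54 (rank 6303) in replicate 1 and 4.33 (rank 13265) in replicate 2. The stress factor genes xbp-1 and atfs-1 had pooled summits of 18.7 and 14.7, below the reproducible list. The small heat shock protein gene sip-1, which carries no hsp- name, also had a pooled summit below that list. Its pooled value was 16.3 (rank 872) at -204 bp, higher in rank than any region at the small hsp members. In replicate 2 sip-1 had 11.4 (rank 860), and in replicate 1 it had no summit in the window.

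The partner list also held stress-induced HSP70 genes that were bound. The divergent genes F44E5.4 and F44E5.5, heat-inducible HSP70 genes that carry no hsp- name, shared a reproducible peak at chrII:11759312-11759575 with 21.5 (rank 509), at -133 bp from F44E5.4 and -218 bp from F44E5.5. It had 6.58 (rank 1416) in replicate 1 and 14.7 (rank 524) in replicate 2. Its window, chrII:11759344-11759544 on the minus strand, is shown because it held the most heat shock element matches of the windows printed here, 5 of each form. Neighbouring matches overlap and share GAA units, so they are not all separate elements.
F44E5.4: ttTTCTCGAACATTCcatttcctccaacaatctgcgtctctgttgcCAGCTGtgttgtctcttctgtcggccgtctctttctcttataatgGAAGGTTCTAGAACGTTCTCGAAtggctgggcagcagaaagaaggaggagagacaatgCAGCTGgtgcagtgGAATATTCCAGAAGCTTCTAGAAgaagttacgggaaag
Counted with the small and inducible genes, this pair would make 2 of 17 bound, both through this single peak near the end of the reproducible list.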

How the data were processed

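Peak lists from 2 biological replicates, numbered in the labels, formed 1 group. Per the labels, the lists are on assemblies ce11 and ce10. For the aligner, the peak caller and the reproducibility threshold, names and settings were not given in the sources used here. The ce11 lists were used, since the annotation is on that assembly. Each region has a signal value, a score that the authors deposited with no stated scale, and a −log10 q-value, also deposited by the authors, of 2.46 to 2.93 in the reproducible list. The lists hold no read counts, so depth and counting error are unknown. The members, gene classes, compartments, partner genes and motifs were chosen with earlier results of these data known. Gene starts were the outermost 5′ ends of protein-coding genes in the Ensembl annotation of WBcel235, and summits were matched to windows with Python 3.11.15, pandas 2.3.3 and numpy 2.4.6, a step that recovered 200 of 200 windows planted in a test. Motifs were searched on both strands. Named are the bound members, all constitutive and all small or inducible hsp genes, up to 5 other members by pooled signal, bound partner genes and genes that share a member's summit. The genes hsf-1, xbp-1, atfs-1 and sip-1 and the sequences printed were chosen after their values were seen. Of 53 listed partner genes, 52 matched the annotation. Alternatives were other windows, all transcript starts, the stronger 50% of peaks, the nearest start only, any overlap, the hsp-16 genes as cytosolic and each replicate alone. No tests were run: genes are not replicates, and there is 1 group.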

Additional observations from a re-analysis of the deposited data

How the results depend on the processing

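Of 66 alternatives, 54 stayed within 1.5 times the value in the report and 12 did not, judged by the count of bound genes unless stated. When each summit was given to the nearest start only, the counts were 5 for all hsp and dnj genes, 2 constitutive, 3 dnj, 2 cytosolic, 0 mitochondrial and 11 partner genes, since neighbours took the shared summits. The stronger 50% of the reproducible peaks left 2 dnj and 11 partner genes. A window of 500 bp upstream to 100 bp downstream left 1 mitochondrial gene, as the hsp-60 summit is farther away. Counting F44E5.4 and F44E5.5 as inducible hsp genes, a choice made after seeing the data, gave 2. With the hsp-16 genes counted as cytosolic the cytosolic count was still 4, now of 15. This alternative was judged by its share, 26.7% against 44.4%, and is among the 12. Using the strongest regions of a single replicate gave 8 to 10 hsp and dnj genes, 5 constitutive, 0 small and inducible, 3 to 5 dnj (3 without replicate 2, when dnj-14 and dnj-19 were lost), 3 to 4 cytosolic, 1 ER, 2 mitochondrial and 14 to 17 partner genes. The unknown depth limits what an empty window shows: a weaker peak may not have been listed. No paired analysis was possible because there is 1 group and no test.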
